A study of Mus musculus with 18 samples.

Results

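The clustered replication-dependent histone genes were examined in RNA from mouse kidney cortex. They were taken as every row whose gene symbol begins with Hist, a cluster number from 1 to 4 and the letter h, which gave 68 of the 24062 genes in the table. By the class in the symbol, 6 encode linker histone H1, 18 encode H2A, 19 encode H2B, 12 encode H3 and 13 encode H4. In GENCODE release M21, 54 lie on chromosome 13, 10 on chromosome 3, 3 on chromosome 11 and 1 on chromosome 6. One of the 68, Hist3h2bb-ps, is annotated as a pseudogene, and the other 67 as protein coding.

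The study compared mice carrying floxed alleles of the transcription factor gene Klf6 (Klf6fl/fl, here fl/fl) with mice labelled as lacking it in the proximal tubule (Klf6PTKO, here PTKO), all C57Bl/6. Both genotypes received aristolochic acid I (AAI), a plant nephrotoxin that forms DNA adducts and injures proximal tubule cells, or the DMSO vehicle. The 6 groups of 3 libraries were PTKO and fl/fl cortex after 3 weeks of AAI followed by 3 weeks of remodeling (6 weeks in all), PTKO and fl/fl cortex after 3 weeks of AAI, and PTKO and fl/fl cortex after DMSO. The promoter that drove the deletion, the sex and age of the mice, the week at which DMSO kidneys were taken and whether each library came from its own animal are not given in the sources used here. The p-values below therefore measure the spread between these libraries. Each DMSO group served as the control at both times.

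Histones of the H2A, H2B, H3 and H4 classes form the protein core of the nucleosome, and H1 binds the DNA between nucleosomes. Clustered histone genes are transcribed mainly in S phase, when new DNA has to be packaged, under the co-activator NPAT. Their mRNAs usually have no introns and no poly(A) tail and end instead just past a conserved stem-loop, which is bound by the protein SLBP. Some of these genes are also known to give longer, polyadenylated mRNAs in differentiated cells.

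Recovered depth ran from 11722625 to 27213219 reads per library. The label check by the targeted gene was not informative, since Klf6 mRNA did not separate the genotypes. Klf6 was at 228, 254 and 370 CPM (reads in proportion to the table's total, scaled as the authors deposited them) in PTKO cortex at 6 weeks, against 284, 201 and 270 CPM in fl/fl cortex at 6 weeks. It was at 310, 280 and 229 CPM in PTKO cortex at 3 weeks, against 308, 273 and 256 CPM in fl/fl cortex at 3 weeks. Under DMSO it was at 40.2, 43.2 and 56.7 CPM in PTKO cortex, against 39.7, 39.2 and 42.3 CPM in fl/fl cortex. The libraries are named here by their labels alone. Adipocyte markers were at a summed 309 CPM in replicate 2 of PTKO cortex at 6 weeks and 39.7 CPM in replicate 2 of PTKO cortex under DMSO, and at 1.57 CPM or less in each of the other 16 libraries.

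The stem-loop was searched for in the annotated transcripts because clustered histone mRNAs usually end just past it. A match alone does not say where an mRNA ends, since annotated transcripts can run on past it. The search took the letters GG, then C or T at each of 2 positions, CTT, C or T, T, any base, A, A or G at each of 3 positions, and CC. It was found in the longest annotated transcript of 45 of the 68 histone genes and in 21 other genes, together 0.119% of the 55341 genes with a transcript. The same 16 letters, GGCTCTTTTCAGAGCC, stood in 25 histone genes of the H1, H2A, H2B and H3 classes, and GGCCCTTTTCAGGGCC stood in 7, all of them H4 genes. The stem-loops of the 5 tested genes that hold one are shown from the GENCODE transcripts, 5′ to 3′ and written as DNA, with the stem-loop in capitals and 5 bases on either side.
Hist1h1c: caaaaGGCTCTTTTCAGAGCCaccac
Hist3h2a: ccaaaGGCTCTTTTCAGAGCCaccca
Hist1h2be: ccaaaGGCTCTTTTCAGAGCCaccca
Hist1h4h: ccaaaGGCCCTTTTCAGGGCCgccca
Hist1h4i: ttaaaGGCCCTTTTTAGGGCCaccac
The annotated transcript ran on for 840 bases after the stem-loop in Hist1h1c, 1643 bases in Hist3h2a, 1861 bases in Hist1h2be, 330 bases in Hist1h4i and 46 bases in Hist1h4h. No stem-loop of this form stood in the annotated transcripts of Hist1h2bc, Hist2h2be or Hist1h2ba. No match says only that these letters are not in that transcript.

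Most clustered histone genes were barely detected in any group. Only 8 of the 68 reached 1 CPM in at least 3 of the 18 libraries and could be tested (1 H1, 1 H2A, 4 H2B and 2 H4 genes, and no H3 gene). Those 8 held 64446 of the 65956 histone reads (97.7%). The other 60 shared 1510 reads across all libraries, 58 of the 68 genes averaged under 0.5 CPM, and 13 had no read in any library. No H3 gene was above 0.464 CPM in any library. Total RNA libraries can keep mRNAs that lack a poly(A) tail, but how far they were kept here was not tested.

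Levels between genes were compared per kilobase (kb) of the longest annotated transcript. Hist1h2bc, an H2B gene at chr13:23684199-23692908 (GRCm38, plus strand), averaged 95.5 CPM per kb over the 18 libraries. Hist1h1c, which encodes the somatic linker histone H1.2 at chr13:23738808-23740367, averaged 24.5 CPM per kb. Hist3h2a, an H2A gene at chr11:58954685-58956830, averaged 5.78 CPM per kb. Of the other tested genes, Hist1h4h averaged 5.33 CPM per kb, Hist2h2be 3.45, Hist1h2ba 2.56, Hist1h4i 2.27 and Hist1h2be 0.677. Hist3h2a overlaps Trim17 on the same strand and Gm44313 on the other, and Hist1h2be overlaps Hist1h1e and Gm11398 on its own strand, and how reads there were assigned is not given in the sources used here.

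The histone genes resemble each other, which limits what a read can be assigned to. Of the 31-base words in the longest transcript, the median share found in no other gene was 10.3% for the 13 genes with no read, 44.8% for the 47 low genes with reads and 67.6% for the 8 tested genes. Some low genes were mostly unique over the longest annotated transcript. Much of that length can lie past the stem-loop, as 2010 of 2482 bases do in Hist1h2ac. Hist1h2aa, a testis H2A gene, was 88.3% unique and had no read. The 8 low genes with reads that were over 80% unique were Hist1h1a, Hist1h1b, Hist1h1d, Hist1h1t, Hist1h2ac, Hist1h4d, Hist2h4 and Hist4h4, and each averaged 0.124 CPM per kb or less. Median transcript length was 1358 bases for the 8 tested genes and 529 bases for the 60 others. Other short RNAs, chosen after their values were seen, had medians of 0.85 CPM for Rmrp and 1.71 CPM for Rpph1. The long noncoding RNAs Malat1 and Neat1 had medians of 352 and 322 CPM. These medians are not per kb, so they cannot be set against the levels per kb above or against each other by length. The part of transcript length, similarity between copies or tail type in these levels was not tested.

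**Figure D1:**
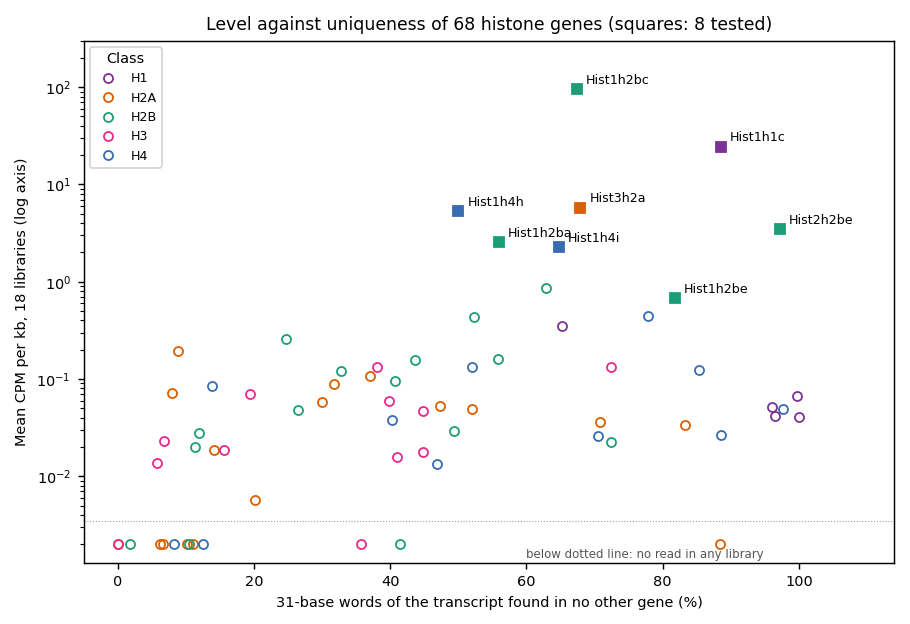
Mean level of each of the 68 histone genes over 18 libraries (CPM per kb, log axis) against the percentage of its transcript's 31-base words that occur in no other gene. Filled squares are the 8 tested genes and open circles the other 60; genes with no read in any library stand below the dotted line. Hist1h2bc (95.5 CPM per kb) and Hist1h1c (24.5 CPM per kb) stand highest, while several genes over 80% unique lie at 0.124 CPM per kb or less.

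H2A and H2B genes often sit head to head and share the DNA between their starts, so the level of both partners was compared. There were 14 divergent pairs with starts within 1000 bases, and 4 of them held a tested gene. Hist1h2bc averaged 95.5 CPM per kb, and Hist1h2ac, 250 bases away on the other strand, 0.0339 CPM per kb. Of the 31-base words in the longest annotated transcript of Hist1h2ac, 83.2% are unique. Hist2h2be averaged 3.45 CPM per kb and Hist2h2ac, 238 bases away, 0.0524 CPM per kb. Hist3h2a averaged 5.78 CPM per kb and Hist3h2bb-ps, 172 bases away, 0.162 CPM per kb. The testis H2B gene Hist1h2ba averaged 2.56 CPM per kb, and its partner Hist1h2aa had no read. In each of the 4 pairs, one gene was thus near or at 0.

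The regions between the starts are shown for the Hist1h2bc and Hist2h2be pairs, because the H2B gene was readily detected and its H2A partner was not. They were read from the RefSeq promoter table (GRCm38.p6) as the 250 bases before the start of the H2A gene, 5′ to 3′ on its strand. Each includes the GENCODE start of the H2B gene near its 5′ end. Capitals mark the octamer (ATTTGCAT or ATGCAAAT), the CCAAT box (CCAAT or ATTGG) and the TATA box (TATAAA or TTTATA), searched on both strands.
Hist1h2ac and Hist1h2bc, chr13:23683960-23684209, minus strand: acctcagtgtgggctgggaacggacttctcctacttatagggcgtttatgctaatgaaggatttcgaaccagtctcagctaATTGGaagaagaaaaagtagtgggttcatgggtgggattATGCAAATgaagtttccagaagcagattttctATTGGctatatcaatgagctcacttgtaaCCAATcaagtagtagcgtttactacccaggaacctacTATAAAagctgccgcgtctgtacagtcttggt
Hist2h2ac and Hist2h2be, chr3:96220881-96221130, minus strand: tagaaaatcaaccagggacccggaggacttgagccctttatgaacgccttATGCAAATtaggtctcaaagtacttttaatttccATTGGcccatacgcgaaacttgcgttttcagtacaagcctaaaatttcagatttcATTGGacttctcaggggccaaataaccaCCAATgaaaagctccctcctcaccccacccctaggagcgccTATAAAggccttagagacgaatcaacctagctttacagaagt
Each region held 1 octamer, 3 CCAAT boxes and 1 TATA box, and in both the TATA box lay near the start of the H2A gene, the weakly detected partner. The search took these exact letters only, so it does not show that the H2B side lacks a similar sequence.

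Promoters were matched for 61 of the 68 genes. The octamer stood in 7 of 17 H2A and 6 of 16 H2B promoters, and in none of 6 H1, 10 H3 and 12 H4 promoters, against 1.60% of the 32851 RefSeq promoters. CCAAT stood in all 6 H1, 17 H2A and 16 H2B promoters, in 8 of 10 H3 and in 3 of 12 H4 promoters, against 33.8% of all promoters. TATAAA stood in 47.5% of the matched histone promoters and 12.4% of all promoters. Divergent H2A and H2B partners share much of the DNA searched, so the same match can count for both genes. In none of these promoters did matches to different motifs overlap. The octamer stood in 33.3% of the 6 tested genes with a matched promoter and in 20.0% of the 55 others. The tested genes without a matched promoter were Hist1h2bc and Hist2h2be, whose regions shown above each held 1 octamer. These matches describe the letters only.

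After 3 weeks of AAI, the tested histone genes were called higher or lower no more often than all genes. In fl/fl cortex Hist1h1c, Hist3h2a, Hist2h2be and Hist1h4h rose and Hist1h2bc fell in CPM relative to DMSO. In PTKO cortex Hist1h1c, Hist3h2a, Hist2h2be and Hist1h4h rose and none fell. The counts were 4 higher and 1 lower of 8 tested in fl/fl cortex, where 58.0% of the 14604 genes tested were called higher and 18.2% lower, and 4 higher and 0 lower in PTKO cortex, where 57.2% were called higher and 13.9% lower. Calls are limma on log2(CPM + 1) with Benjamini-Hochberg adjustment over all genes at 0.05. The median log2 fold change was 0.46 for the 8 histone genes and 0.45 for all genes in fl/fl cortex, and 0.40 and 0.42 in PTKO cortex.

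The median gene itself moved up in CPM after AAI. At 3 weeks it moved by 0.45 in fl/fl and 0.42 in PTKO cortex, and at 6 weeks by 0.45 and 0.36. Values after median-of-ratios scaling, which brings the median gene near level, therefore stand beside the calls of the tested histone genes. Other changes below are in CPM and hold that shift unless the scaling is named. With that scaling the histone calls at 3 weeks were 2 higher and 1 lower in PTKO cortex, where 32.9% of all genes were called higher and 31.3% lower, and 1 higher and 1 lower in fl/fl cortex, where 36.7% and 34.2% were. At 6 weeks they were 1 higher and 0 lower in PTKO cortex, against 28.7% and 28.9% of all genes, and 1 higher and 2 lower in fl/fl cortex, against 34.1% and 32.5%. Markers of other cells moved with AAI as well. All 10 proximal tubule markers fell at 3 weeks in both genotypes, with sums of 5742 to 8534 CPM in PTKO cortex after AAI against 19634 to 23941 CPM under DMSO, and 3091 to 5257 CPM in fl/fl cortex after AAI against 19359 to 20435 CPM under DMSO. All 9 tested macrophage markers rose, with sums of 1757 to 3472 CPM in PTKO cortex after 3 weeks of AAI against 127 to 147 CPM under DMSO, and 5241 to 8818 CPM in fl/fl cortex against 132 to 187 CPM. Their part in the histone changes was not tested, and in cortex as a whole, fewer cells of a type and less RNA per cell cannot be told apart.

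**Figure D2:**
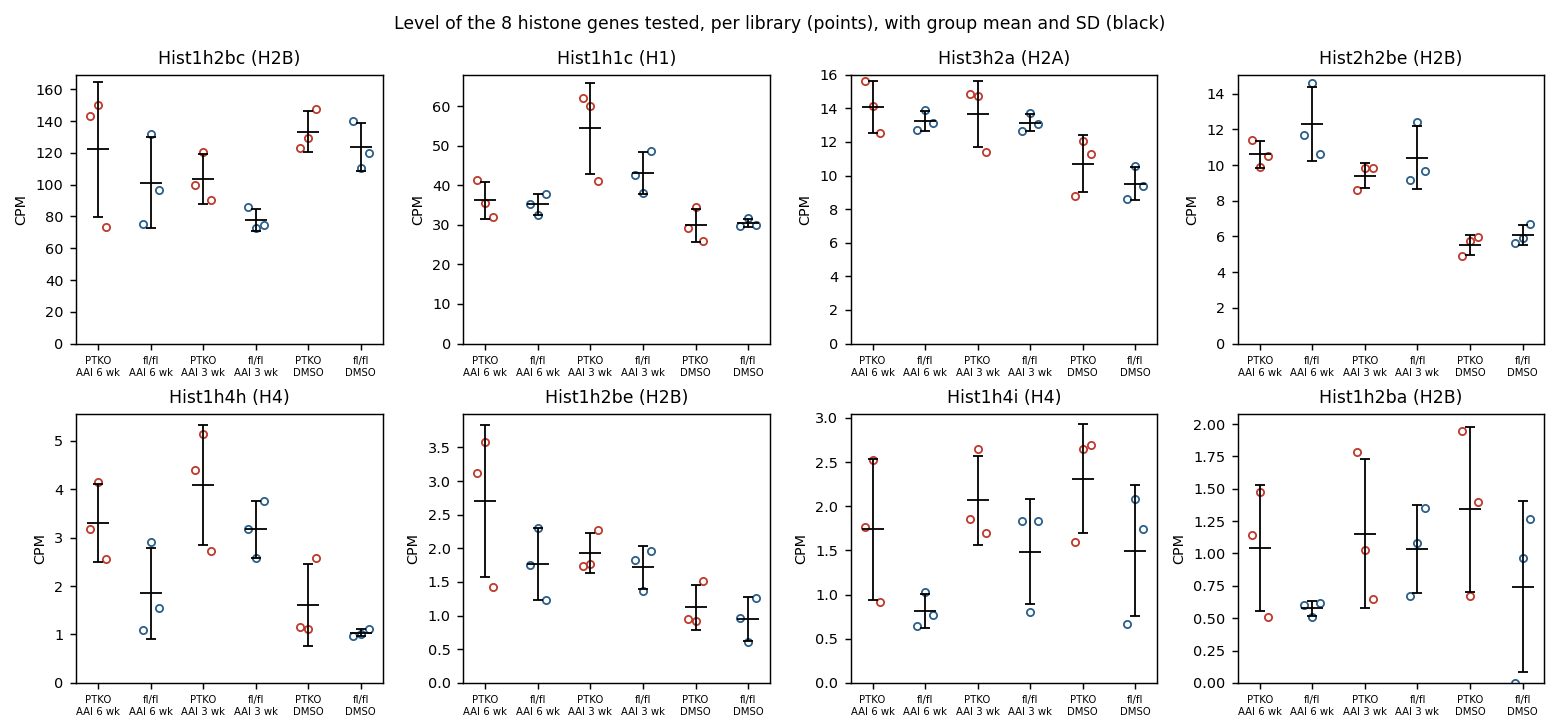
Level in CPM of the 8 testable histone genes in each of the 18 libraries (open points; red PTKO, blue fl/fl), with the mean and SD of each group of 3 in black. For Hist2h2be every AAI library lies above every DMSO library, and for Hist1h2bc the 3 fl/fl libraries at 3 weeks (72.9 to 85.8 CPM) lie below all DMSO libraries.

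Among linker histones only Hist1h1c could be tested. It was at 62.0, 60.04 and 41.0 CPM in PTKO cortex after 3 weeks of AAI, against 29.2, 34.4 and 25.9 CPM under DMSO. It was at 42.6, 38.1 and 48.6 CPM in fl/fl cortex after 3 weeks of AAI, against 29.7, 31.7 and 29.9 CPM under DMSO. The groups did not overlap in either genotype. The log2 fold change was 0.83 ± 0.15 (SE; limma adjusted p = 0.000112) in PTKO and 0.48 ± 0.15 (limma adjusted p = 0.00732) in fl/fl cortex. After median-of-ratios scaling it was 0.39 (limma adjusted p = 0.027) in PTKO cortex and 0.03 (limma adjusted p = 0.88) in fl/fl cortex. The genotypes were not shown to differ, since the interaction was 0.35 ± 0.21 (limma adjusted p = 0.388).

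Among core histones of the H2A class, Hist3h2a was at 14.8, 14.7 and 11.4 CPM in PTKO cortex after 3 weeks of AAI, against 8.79, 12.1 and 11.3 CPM under DMSO. It was at 12.7, 13.7 and 13.1 CPM in fl/fl cortex after 3 weeks of AAI, against 8.60, 10.6 and 9.41 CPM under DMSO. The groups overlapped in PTKO cortex and did not in fl/fl cortex. The changes in CPM, 0.33 ± 0.13 in PTKO (limma adjusted p = 0.0344) and 0.43 ± 0.13 in fl/fl cortex (limma adjusted p = 0.00704), were the size of the shift of the median gene. After median-of-ratios scaling they were -0.09 in PTKO and 0.00098 in fl/fl cortex, and the call was lost in both. In PTKO cortex the call was also lost without AAI replicate 1, AAI replicate 2 or DMSO replicate 1, with a log2 fold change of 0.20 to 0.44 over the leave-one-out fits.

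H2B held the only tested gene called lower at 3 weeks. Hist1h2bc was at 85.8, 72.9 and 74.4 CPM in fl/fl cortex after 3 weeks of AAI, against 140.3, 110.5 and 120.1 CPM under DMSO, and the groups did not overlap. Its log2 fold change was -0.66 ± 0.23 (limma adjusted p = 0.0155), and without DMSO replicate 1 it was -0.57 (limma adjusted p = 0.0613). In PTKO cortex it was at 100.1, 121 and 90.3 CPM after 3 weeks of AAI, against 123, 129 and 148 CPM under DMSO, also without overlap. That log2 fold change, -0.37 ± 0.23 (limma adjusted p = 0.161), did not pass the test. Relative to the median gene the difference was larger. With median-of-ratios scaling it was -0.82 (limma adjusted p = 0.0092) in PTKO and -1.12 (limma adjusted p = 0.00076) in fl/fl cortex. The interaction was 0.29 ± 0.32 (limma adjusted p = 0.673).

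Hist2h2be, an H2B gene at chr3:96221119-96223738, moved the other way. It was at 8.59, 9.81 and 9.84 CPM in PTKO cortex after 3 weeks of AAI, against 4.90, 5.72 and 5.98 CPM under DMSO. It was at 9.14, 12.4 and 9.64 CPM in fl/fl cortex after 3 weeks of AAI, against 5.63, 5.89 and 6.71 CPM under DMSO. No AAI library overlapped the DMSO libraries of its genotype. The log2 fold change was 0.67 ± 0.14 (limma adjusted p = 0.000385) in PTKO and 0.68 ± 0.14 (limma adjusted p = 0.000288) in fl/fl cortex. After median-of-ratios scaling it was 0.28 (limma adjusted p = 0.096) and 0.27 (limma adjusted p = 0.11), and the call at 3 weeks was lost.

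The 2 remaining H2B genes were near the detection limit. Hist1h2be was at 1.74, 1.76 and 2.27 CPM in PTKO cortex after 3 weeks of AAI, against 0.949, 0.914 and 1.51 CPM under DMSO (log2 fold change 0.47, limma adjusted p = 0.0699), and at 1.83, 1.36 and 1.96 CPM in fl/fl cortex, against 0.969, 0.610 and 1.27 CPM (0.49, limma adjusted p = 0.0567). The groups did not overlap, but neither difference passed the test, with 0.21 (limma adjusted p = 0.446) in PTKO and 0.23 (limma adjusted p = 0.376) in fl/fl cortex after median-of-ratios scaling. Hist1h2ba, which encodes the testis H2B variant, was at 1.78, 1.03 and 0.648 CPM in PTKO cortex after 3 weeks of AAI, against 1.95, 0.674 and 1.40 CPM under DMSO. The fl/fl libraries were at 0.672, 1.08 and 1.35 CPM after 3 weeks of AAI, against 0, 0.965 and 1.27 CPM. Its groups overlapped in both genotypes. The 5 testis markers Prm1, Prm2, Tnp1, Acrv1 and Ddx4 summed to 0.785 CPM or less in every library.

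In the H4 class Hist1h4h rose and Hist1h4i did not pass the test. Hist1h4h was at 4.39, 5.15 and 2.71 CPM in PTKO cortex after 3 weeks of AAI, against 1.15, 1.11 and 2.59 CPM under DMSO. The fl/fl libraries were at 3.17, 2.58 and 3.75 CPM, against 0.969, 1.02 and 1.11 CPM under DMSO. The groups did not overlap in either genotype, although PTKO replicate 3 was close on both sides. The log2 fold change was 0.97 ± 0.25 (limma adjusted p = 0.00277) in PTKO and 1.03 ± 0.25 (limma adjusted p = 0.00161) in fl/fl cortex. This was the histone gene called higher at 3 weeks in both genotypes after median-of-ratios scaling as well, at 0.67 (limma adjusted p = 0.035) in PTKO and 0.74 (limma adjusted p = 0.019) in fl/fl cortex. edgeR with a filter on low values gave an adjusted p of 0.0471 in PTKO and 0.0206 in fl/fl cortex, and without that filter the PTKO call was lost (edgeR adjusted p = 0.0541). Hist1h4i had log2 fold changes of -0.10 in PTKO and 0.01 in fl/fl cortex, with overlapping groups.

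**Figure D3:**
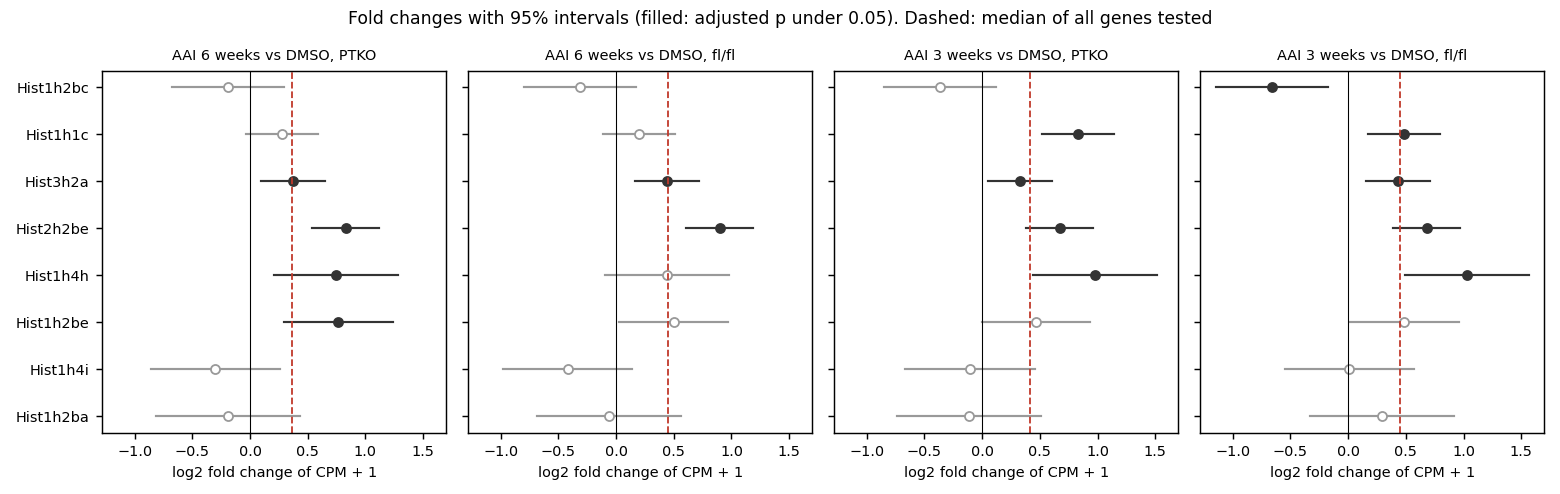
Log2 fold changes of CPM + 1 after AAI against DMSO with their 95% intervals, for the 8 tested histone genes in 4 comparisons. Filled points have a limma adjusted p under 0.05 and the dashed line is the median of all 14604 genes tested (0.36 to 0.45). Hist3h2a sits on that line in each comparison, Hist1h2bc lies to its left throughout, and Hist2h2be to its right.

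At 6 weeks Hist2h2be was called higher in both genotypes. It was at 11.4, 9.89 and 10.5 CPM in PTKO cortex at 6 weeks, against 4.90, 5.72 and 5.98 CPM under DMSO, and at 11.7, 14.6 and 10.6 CPM in fl/fl cortex at 6 weeks, against 5.63, 5.89 and 6.71 CPM. The log2 fold change was 0.83 ± 0.14 (limma adjusted p = 8.78e-05) in PTKO and 0.90 ± 0.14 (limma adjusted p = 2.4e-05) in fl/fl cortex. It kept its call after median-of-ratios scaling, at 0.48 (limma adjusted p = 0.0088) and 0.47 (limma adjusted p = 0.0087). In all, 4 of 8 were called higher in PTKO cortex, where 53.7% of all genes were, and 2 of 8 in fl/fl cortex, where 59.8% were. None was called lower in either, against 11.4% and 13.9% of all genes.

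The other calls at 6 weeks were smaller or less even. Hist1h4h was at 3.17, 4.16 and 2.56 CPM in PTKO cortex at 6 weeks (0.75 ± 0.25, limma adjusted p = 0.0173). The groups overlapped, as the lowest of these lay below the DMSO library at 2.59 CPM, and the call was lost without AAI replicate 2, DMSO replicate 1 or DMSO replicate 2, with 0.60 to 0.996 over the leave-one-out fits. Hist1h2be was at 3.12, 3.58 and 1.43 CPM in PTKO cortex at 6 weeks (0.76 ± 0.22, limma adjusted p = 0.00700), and the last of these lay within the DMSO range. With median-of-ratios scaling both calls were lost, at 0.49 for Hist1h4h (limma adjusted p = 0.123) and 0.54 for Hist1h2be (limma adjusted p = 0.0573). In fl/fl cortex at 6 weeks Hist1h4h was at 1.10, 2.90 and 1.55 CPM and Hist1h2be at 1.74, 2.30 and 1.24 CPM, and neither passed the test. Hist3h2a was called in both genotypes, by 0.37 ± 0.13 in PTKO (limma adjusted p = 0.0201) and 0.44 ± 0.13 in fl/fl cortex (limma adjusted p = 0.00638), with 0.0068 in PTKO and -0.0033 in fl/fl cortex after median-of-ratios scaling. The PTKO call for Hist3h2a was lost without AAI replicate 1 or DMSO replicate 1 (0.25 to 0.46 over the leave-one-out fits).

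No call was made for Hist1h2bc in CPM at 6 weeks. It was at 143, 150 and 73.5 CPM in PTKO cortex at 6 weeks and at 75.5, 132 and 96.4 CPM in fl/fl cortex at 6 weeks. Both groups overlapped their DMSO libraries, and the log2 fold changes were -0.19 (limma adjusted p = 0.478) in PTKO and -0.31 (limma adjusted p = 0.223) in fl/fl cortex. After median-of-ratios scaling the fl/fl difference, -0.79, passed the test (limma adjusted p = 0.01), and so did that of Hist1h4i, at -0.67 (limma adjusted p = 0.04).

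The share of each gene in the histone signal of a library does not depend on how the library is scaled. Hist1h2bc made up 63.7%, 66.3% and 53.5% of the summed histone CPM in PTKO cortex at 6 weeks and 49.9%, 54.7% and 54.4% at 3 weeks, against 70.7%, 68.03% and 73.0% under DMSO. The fl/fl shares were 52.8%, 65.3% and 57.9% at 6 weeks and 52.6%, 49.6% and 46.2% at 3 weeks, against 74.4%, 66.6% and 68.9% under DMSO. In both genotypes and at both times every AAI library was below every DMSO library of its genotype. The shares of a library have a fixed total, so a lower Hist1h2bc share by itself raises the shares of the other genes. The Hist1h1c and Hist2h2be shares are therefore not separate from it. Hist1h1c made up 27.6% ± 3.1 (SD, n = 3) in PTKO cortex at 3 weeks against 15.9% ± 2.7 under DMSO, and 27.4% ± 2.4 in fl/fl cortex at 3 weeks against 17.3% ± 1.7. Its groups overlapped at 6 weeks. Hist2h2be made up 5.69% ± 1.7 in PTKO cortex at 6 weeks against 2.92% ± 0.11 under DMSO, and 7.24% ± 0.90 in fl/fl cortex at 6 weeks against 3.46% ± 0.44. An exact permutation test of 3 libraries against 3 cannot give a p below 0.1, so none is given.

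**Figure D4:**
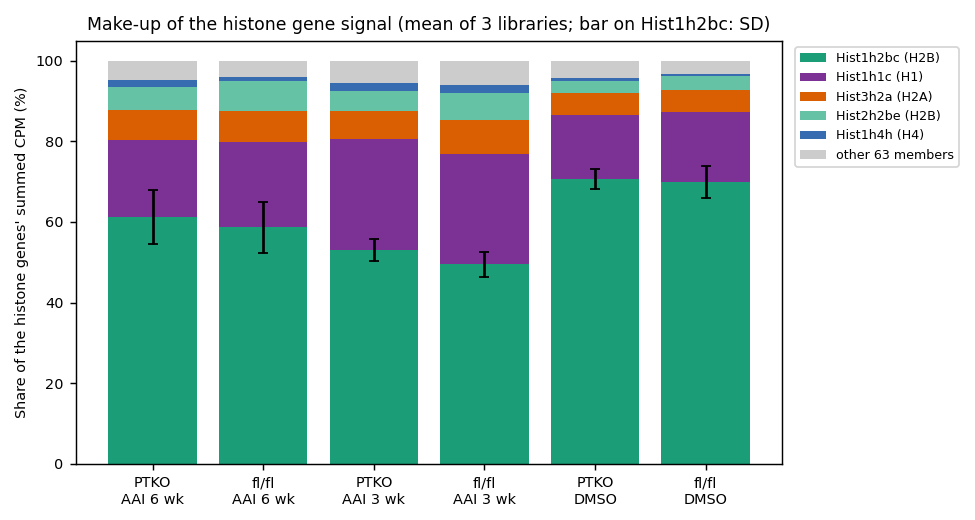
Share of the summed CPM of the 68 histone genes held by each of the 5 most abundant and by the other 63 together, as the mean of 3 libraries per group, with the SD drawn for Hist1h2bc. The Hist1h2bc share is 49.5% to 61.2% in the AAI groups and 70.0% to 70.6% in the DMSO groups.

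Between the later and the earlier AAI time, 1 histone gene was called. In PTKO cortex Hist1h1c was lower at 6 weeks, at 41.2, 35.4 and 32.0 CPM, against 62.0, 60.04 and 41.0 CPM at 3 weeks, with overlapping groups (log2 fold change -0.56 ± 0.15, limma adjusted p = 0.0261). It was 1 of 8 tested, and 8.26% of all genes were called lower and 2.92% higher. The call was lost in a fit of these groups alone (limma adjusted p = 0.125) and without 3-week replicate 1 or 2 or 6-week replicate 2 or 3 (limma adjusted p up to 0.121). In fl/fl cortex Hist1h1c was at 35.1, 32.5 and 37.7 CPM at 6 weeks, against 42.6, 38.1 and 48.6 CPM at 3 weeks, and its log2 fold change of -0.28 did not pass (limma adjusted p = 0.208). There limma called 0 of 8 histone genes, 1 at an unadjusted p under 0.05, against 7.16% of all genes called higher and 6.07% lower. edgeR and DESeq2 also called 0.

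No tested histone gene passed the test between the libraries labelled PTKO and fl/fl. limma called 0 of 8 in PTKO against fl/fl cortex at 6 weeks, at 3 weeks and under DMSO, with 1, 1 and 0 at an unadjusted p under 0.05, and edgeR and DESeq2 called 0 in each. Of all genes, 15.1%, 14.2% and 0.288% were called there. The unadjusted gene at 6 weeks was Hist1h4h, at 3.17, 4.16 and 2.56 CPM in PTKO cortex against 1.10, 2.90 and 1.55 CPM in fl/fl cortex (log2 fold change 0.63 ± 0.25, limma adjusted p = 0.103). At 3 weeks it was Hist1h1c (0.31 ± 0.15, limma adjusted p = 0.165). Hist1h2bc did not overlap between genotypes at 3 weeks, but its difference of 0.41 did not pass the test (limma adjusted p = 0.248). The genotype by AAI interaction called 0 of 8 at both times, with 0 at an unadjusted p under 0.05 and 0 by edgeR and DESeq2, against 0.0685% of all genes at 6 weeks and 0.281% at 3 weeks. With 3 libraries a group, intervals of these differences were wide, and a gene that misses the threshold is not shown to be equal.

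Summed by class, the level in each group mostly followed its most abundant gene. H2B summed to 118 ± 15 CPM (SD, n = 3) in PTKO cortex at 3 weeks against 142 ± 14 CPM under DMSO, and to 92.5 ± 5.6 CPM in fl/fl cortex at 3 weeks against 132 ± 14 CPM under DMSO. Without Hist1h2bc the remaining 18 H2B genes summed to 13.8 ± 0.47 CPM in PTKO cortex at 3 weeks against 8.98 ± 0.94 CPM, and to 14.8 ± 1.5 CPM in fl/fl cortex against 8.69 ± 1.3 CPM, the other direction. H1 summed to 56.2 ± 12 CPM in PTKO cortex at 3 weeks against 30.6 ± 4.4 CPM, and to 44.5 ± 5.4 CPM in fl/fl cortex against 31.1 ± 1.0 CPM. H2A summed to 14.2 ± 1.9 CPM in PTKO cortex against 10.98 ± 1.7 CPM and to 13.8 ± 0.41 CPM in fl/fl cortex against 9.65 ± 1.1 CPM. H4 summed to 7.01 ± 1.3 CPM in PTKO cortex against 4.87 ± 1.5 CPM and to 5.58 ± 1.5 CPM in fl/fl cortex against 3.20 ± 1.1 CPM.

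Over all 68 genes the sum was 196 ± 51 CPM in PTKO cortex at 6 weeks and 196 ± 28 CPM at 3 weeks, against 189 ± 14 CPM under DMSO. The fl/fl sum was 171 ± 30 CPM at 6 weeks and 157 ± 9.0 CPM at 3 weeks, against 176 ± 11 CPM under DMSO. The fl/fl libraries at 3 weeks lay below all fl/fl DMSO libraries, and the other AAI groups overlapped their DMSO libraries. The PTKO libraries at 3 weeks lay above all fl/fl libraries at 3 weeks, with no test given for a sum over these genes.

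The 60 low genes together gave 133, 129 and 149 reads in the PTKO libraries at 3 weeks, against 54, 67 and 60 under DMSO, and 149, 83 and 150 reads in the fl/fl libraries at 3 weeks, against 27, 52 and 54 under DMSO. Relative to depth, the pooled level was 1.75 times the DMSO level in PTKO cortex (95% interval 1.46 to 2.09, exact, counting error only) and 2.23 times in fl/fl cortex (1.82 to 2.74). At 6 weeks the ratio was 1.36 (1.12 to 1.66) in PTKO and 1.51 (1.19 to 1.91) in fl/fl cortex. In summed CPM the AAI and DMSO groups did not overlap at 3 weeks in either genotype or at 6 weeks in PTKO cortex. In fl/fl cortex at 6 weeks they overlapped, at 3.89, 2.39 and 4.41 CPM against 1.63, 2.64 and 2.85 CPM. These ratios hold the shift of the median gene. After median-of-ratios scaling, tried after the data were seen, the ratio of group means was 1.28 in PTKO and 1.63 in fl/fl cortex at 3 weeks, and 1.04 and 1.06 at 6 weeks. The scaled groups overlapped in each of these comparisons except PTKO cortex at 3 weeks.

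H3, which had no testable gene, had a higher pooled ratio at 3 weeks than the low genes of each other class. Its 12 genes gave 15, 20 and 26 reads in PTKO cortex at 3 weeks, against 3, 2 and 0 under DMSO, and 26, 5 and 17 reads in fl/fl cortex at 3 weeks, against 3, 0 and 0 under DMSO. The pooled ratio was 9.39 (95% interval 3.81 to 29.9) in PTKO and 12.4 (4.001 to 62.3) in fl/fl cortex. At 6 weeks the H3 genes gave 13, 14 and 3 reads in PTKO cortex, against 3, 2 and 0 under DMSO, and 6, 0 and 9 reads in fl/fl cortex, against 3, 0 and 0. The pooled ratio at 6 weeks was 6.16 (2.37 to 20.3) in PTKO and 6.16 (1.74 to 33.2) in fl/fl cortex. The groups overlapped in fl/fl cortex, and in PTKO cortex the lowest AAI library (0.153 CPM) and the highest DMSO library (0.150 CPM) were nearly level. For the low H4 genes the interval at 3 weeks included 1, with a ratio of 0.893 (0.615 to 1.30) in PTKO and 1.37 (0.906 to 2.09) in fl/fl cortex. As ratios of group means, the low H2A genes were at 1.87 in PTKO and 5.22 in fl/fl cortex at 3 weeks. The low H1 genes were at 2.39 and 2.35, and the low H2B genes at 1.37 and 1.84. The fl/fl interval of H3 includes the fl/fl value of H2A, and differences between classes were not tested.

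**Figure D5:**
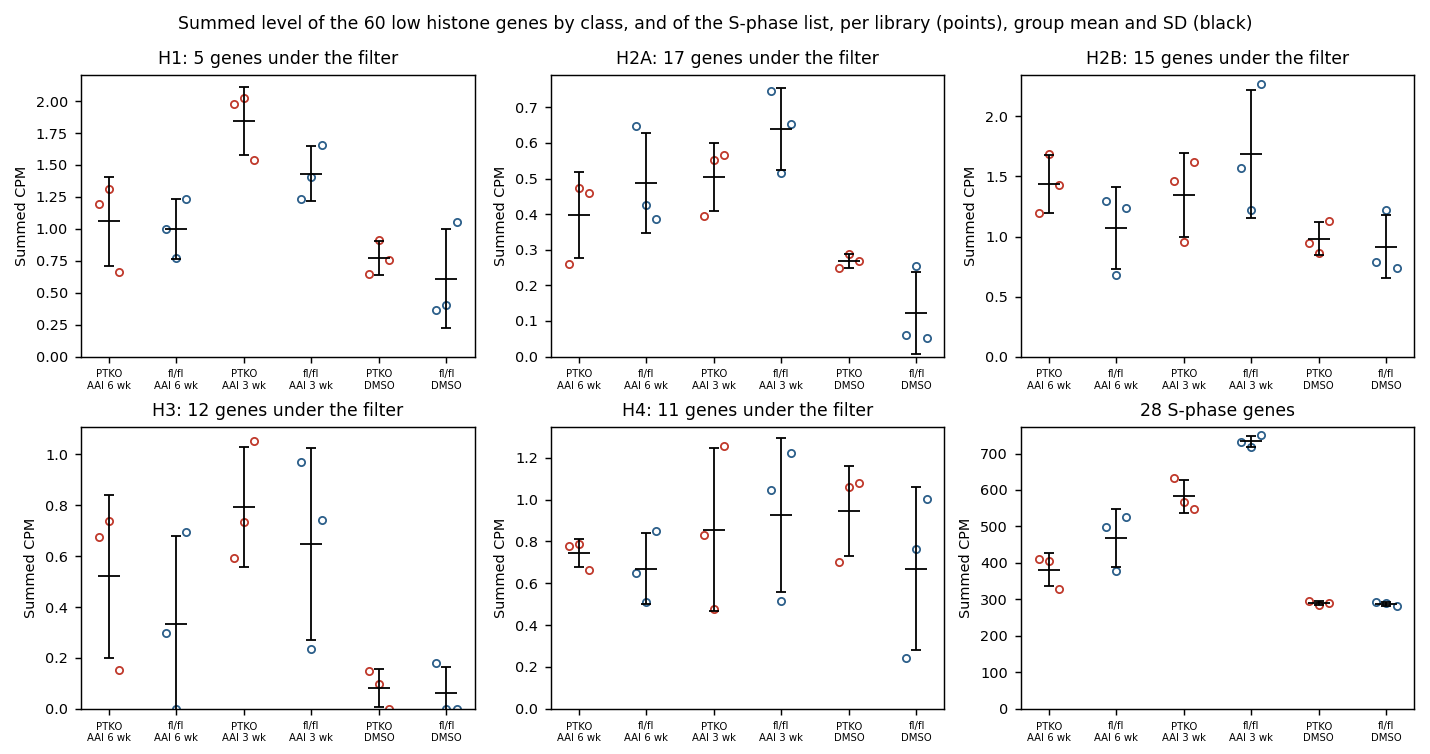
Summed CPM per library of the 60 histone genes too low to test, by class, and of 28 S-phase genes (bottom right), with the mean and SD of each group of 3. The vertical axes differ: each histone class stays at 2.27 CPM or less in every library, while the S-phase genes sum to 549 to 750 CPM at 3 weeks and 281 to 294 CPM under DMSO.

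Single low genes were examined with edgeR on the recovered reads without a filter on low values, a fit added after the data were seen, which held 47 of the 60. In PTKO cortex at 3 weeks edgeR called 2 higher and 2 lower, where 26.0% of the 20027 genes in that fit were called higher and 21.9% lower. In fl/fl cortex it called 6 higher and 1 lower, where 28.4% and 25.4% were. At 6 weeks it called 2 higher (Hist3h2ba and Hist1h1d) and 1 lower (Hist1h4c) in PTKO cortex, against 23.1% and 18.7%, and 1 higher (Hist1h2bg) and 1 lower (Hist1h2bb) in fl/fl cortex, against 25.9% and 23.0%.

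Hist1h1d, which encodes the somatic linker histone H1.3, had 21, 14 and 12 reads in PTKO cortex at 3 weeks and none in any PTKO library under DMSO. Against a floor of 3 reads over the DMSO group, the ratio was 12.1 (edgeR adjusted p = 0.000131). That ratio leaves out counting error in the AAI reads and holds the shift of the median gene. The fl/fl libraries had 11, 14 and 16 reads at 3 weeks, against 0, 2 and 2 under DMSO (edgeR adjusted p = 0.00582). The H3 gene Hist1h3d had 7, 9 and 8 reads in PTKO cortex at 3 weeks, against 1, 0 and 0 under DMSO (edgeR adjusted p = 0.0218), and 9, 2 and 10 reads in fl/fl cortex, against 1, 0 and 0 (edgeR adjusted p = 0.0318). Both were called higher in both genotypes.

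Of the low H2B genes, Hist3h2ba had 20, 13 and 29 reads in fl/fl cortex at 3 weeks, against 5, 4 and 1 under DMSO (edgeR adjusted p = 0.0126), and 11, 23 and 19 reads in PTKO cortex at 6 weeks, against 5, 2 and 4 (edgeR adjusted p = 0.00923). Hist1h2bg had 6, 7 and 4 reads in fl/fl cortex at 3 weeks and none under DMSO, a ratio of 4.40 against the same floor (edgeR adjusted p = 0.00514). Hist1h2ab and Hist4h4 were the other genes called higher there, with 10 reads each against 0. Hist1h4c went the other way, with 10, 6 and 8 reads in PTKO cortex at 3 weeks, against 11, 16 and 14 under DMSO (edgeR adjusted p = 0.0377), and 4, 3 and 8 reads in fl/fl cortex, against 1, 10 and 17 (edgeR adjusted p = 0.0373). Its fl/fl groups overlapped in reads. Hist1h2bb was called lower in PTKO cortex at 3 weeks, with 4, 1 and 5 reads against 7, 12 and 6 (edgeR adjusted p = 0.0271). The testis linker histone gene Hist1h1t had 0 to 3 reads per library.

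Other genes of S phase rose in the same libraries in which most clustered histone genes were barely detected. Of 28 S-phase and DNA replication genes, 27 rose at 3 weeks in each genotype, and 22 rose in PTKO and 26 in fl/fl cortex at 6 weeks. Of all genes 57.2% in PTKO and 58.0% in fl/fl cortex rose at 3 weeks, and 53.7% and 59.8% at 6 weeks. The S-phase genes' median log2 fold change at 3 weeks was 1.32 in PTKO and 1.64 in fl/fl cortex. With median-of-ratios scaling 25 rose in PTKO and 26 in fl/fl cortex at 3 weeks, against 32.9% and 36.7% of all genes. At 6 weeks 17 rose in PTKO and 21 in fl/fl cortex with that scaling, against 28.7% and 34.1%. The replication clamp gene Pcna averaged 32.8 CPM in PTKO cortex at 3 weeks against 14.9 CPM under DMSO, and 33.7 CPM in fl/fl cortex against 12.4 CPM. All 15 mitosis genes rose at 3 weeks and at 6 weeks in both genotypes. With median-of-ratios scaling all 15 still rose, except in PTKO cortex at 6 weeks, where 12 did. The proliferation marker Mki67 averaged 77.9 CPM in PTKO cortex at 3 weeks against 4.77 CPM, and 92.3 CPM in fl/fl cortex against 4.10 CPM. Between 6 and 3 weeks 20 of the 28 S-phase genes fell in each genotype and none rose, where 8.26% of all genes fell in PTKO and 6.07% in fl/fl cortex.

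Among 13 tested genes for transcription and processing of histone mRNA, 13 rose in PTKO and 12 in fl/fl cortex at 3 weeks, and 12 in each at 6 weeks, where 57.2% and 58.0% of all genes rose at 3 weeks and 53.7% and 59.8% at 6 weeks. With median-of-ratios scaling 4 of 13 rose in PTKO cortex at 3 weeks, where 32.9% of all genes rose, and in fl/fl cortex 5 rose and 1 fell, where 36.7% rose and 34.2% fell. Slbp averaged 21.1 CPM in PTKO cortex at 3 weeks against 11.2 CPM under DMSO (log2 fold change 0.85, limma adjusted p = 1.81e-06), and 23.6 CPM in fl/fl cortex against 12.4 CPM (0.87, limma adjusted p = 8.66e-07). Npat rose by 0.56 in PTKO and 0.59 in fl/fl cortex. Of 12 histone chaperone genes, which hand histones to DNA, 9 rose in each genotype at 3 weeks, where 57.2% of all genes rose in PTKO and 58.0% in fl/fl cortex. They included Asf1b, by 2.72 in PTKO and 3.21 in fl/fl cortex, and Chaf1b, by 2.18 and 2.81. With median-of-ratios scaling 3 chaperone genes rose and 4 fell in PTKO cortex, and 5 rose and 3 fell in fl/fl cortex, where of all genes 32.9% rose and 31.3% fell in PTKO and 36.7% rose and 34.2% fell in fl/fl cortex.

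The genes listed as replication-independent variants are encoded outside the clusters, and many of their products can replace clustered histones throughout the cell cycle. Whether each of the 11, H2afx among them, was independent of replication here was not tested. Of 11 tested, 6 rose in PTKO and 8 in fl/fl cortex at 3 weeks, against 57.2% and 58.0% of all genes, and 8 and 10 rose at 6 weeks, against 53.7% and 59.8%. With median-of-ratios scaling 4 rose and 2 fell in PTKO cortex at 3 weeks, and 6 rose and 3 fell in fl/fl cortex, beside the scaled shares of all genes given for the chaperones. H3f3b, which encodes H3.3, averaged 240 CPM in PTKO cortex at 3 weeks against 108 CPM under DMSO, and 264 CPM in fl/fl cortex against 118 CPM. H2afx, the H2A variant phosphorylated at DNA breaks, rose by 1.14 in PTKO and 1.72 in fl/fl cortex at 3 weeks. H3f3a passed the test at 6 weeks, by 1.25 in each genotype, and did not at 3 weeks (0.19 and 0.13). H1f0, the replacement linker histone, averaged 196 CPM in PTKO cortex at 3 weeks against 169.5 CPM, and 210 CPM in fl/fl cortex against 185 CPM, and its changes of 0.21 and 0.18 did not pass the test. H2afz rose by 0.72 in fl/fl cortex at 3 weeks, and its 0.25 in PTKO cortex did not pass.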

How the data were processed

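The authors deposited CPM values in 1 table, which holds 24062 genes and 18 libraries. Per the labels, cDNA came from a stranded total RNA kit, and the design text calls the data mRNA profiles. bcl2fastq 2.19, kallisto and the mm10 build are named in the submitters' processing notes, without roles, and how multi-mapping reads were counted is not given in the sources used here. All 433116 deposited CPM values (100%) were whole read counts within 0.01 read, so counts were recovered.

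The 14604 genes that reached 1 CPM in 3 or more libraries were fitted with limma 3.58.1 (R 4.3.3) as log2(CPM + 1), with 6 group means over all 18 libraries, a variance trend, two-sided tests and Benjamini-Hochberg adjustment at 0.05. This scale understates the change of low genes. Alternatives were edgeR 4.0.16 and DESeq2 1.42.0 on recovered counts, other filters, scaling and pseudocount, the compared groups alone, a replicate block and each library left out. On simulated counts for AAI at 3 weeks against DMSO in fl/fl cortex (14604 genes), 83% of 2-fold and 99% of 4-fold changes were recovered. There 100 genes were changed 2-fold and 100 were changed 4-fold, all at 1 CPM or more under DMSO, and 6 unchanged genes were called. The spread was that of the fl/fl DMSO libraries and most genes were left unchanged. These rates may therefore not hold for the data, and they do not cover the low genes.

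The histone genes and the other lists were chosen with earlier results of these data known. Any histone gene may be named. Transcripts are from GENCODE M21, promoters from RefSeq (GRCm38.p6, 61 genes matched). Intervals cover counting error only, and floors cover that of the DMSO reads only. One result on a gene outside the histone clusters is not reported here.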

Additional observations from a re-analysis of the deposited data

How the results depend on the processing

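With a pseudocount of 0.1 all 27 results with a test stayed the same. For the fold change of a called gene this means the same direction and call. For a number of genes called it means equal or within a factor of 1.5. Replicate numbers shared across groups were not shown to pair the libraries, as 10 of 45 same-numbered pairs had a correlation of deviations over 0.1 (-0.37 to 0.49). Pairs with different numbers were not compared, so the check cannot decide whether some groups were paired. With the replicate block all 27 results stayed the same in that sense. For example, 5 histone genes were called in fl/fl cortex at 3 weeks, with an adjusted p of 0.0154 for Hist1h2bc there (limma).

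The number of histone genes called moved with the filter and scaling. Without a filter on low values limma called 9 in PTKO and 6 in fl/fl cortex at 6 weeks, 14 in PTKO and 16 in fl/fl cortex at 3 weeks, 3 between 6 and 3 weeks in PTKO cortex, and 2 between PTKO and fl/fl cortex at 6 weeks. That fit held 55 of the 68 histone genes, and of its 20027 genes limma called 9633 in PTKO and 11554 in fl/fl cortex at 6 weeks, 10772 and 11991 at 3 weeks, 1320 between the times in PTKO cortex and 1958 between genotypes at 6 weeks. A filter at 5 CPM left 2 in PTKO cortex at 6 weeks. Median-of-ratios scaling left 1 in PTKO cortex at 6 weeks and 2 in fl/fl cortex at 3 weeks, and edgeR and DESeq2 each left 2 in both. edgeR without a filter called 5 in fl/fl cortex at 6 weeks and 9 at 3 weeks. Fitting the compared groups alone left 0 between 6 and 3 weeks in PTKO cortex. Leaving out 1 library gave 2 to 4 in PTKO cortex at 6 weeks, 0 to 1 between 6 and 3 weeks in PTKO cortex, and 0 to 1 between PTKO and fl/fl cortex at 6 weeks and at 3 weeks.

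Hist3h2a changed sign near 0. Its log2 fold change in fl/fl cortex at 6 weeks was -0.0033 with median-of-ratios scaling, -0.0084 with edgeR, -0.011 with edgeR without a filter and -0.011 with DESeq2. For PTKO cortex at 3 weeks the values in the same order were -0.0903, -0.0835, -0.0816 and -0.099, and for fl/fl cortex at 3 weeks edgeR gave -0.0234, edgeR without a filter -0.0182 and DESeq2 -0.0067. The cause was not tested.

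Class ratios of AAI to DMSO moved with scaling, as CPM and median-of-ratios values differ by the shift of the median gene. With median-of-ratios scaling they were 0.928 for H1 and 1.006 for H2A in PTKO cortex at 6 weeks, 0.83 and 1.02 in fl/fl cortex at 6 weeks, 1.34 for H1, 0.944 for H2A and 0.604 for H2B in PTKO cortex at 3 weeks, and 1.04, 1.03 and 0.506 in fl/fl cortex at 3 weeks. Without the most abundant gene of the class they were 1.76 for H2B in PTKO cortex at 6 weeks, 1.64 for H1, 3.98 for H2A and 1.81 for H2B in fl/fl cortex at 6 weeks, 2.39 for H1, 1.87 for H2A, 1.54 for H2B and 0.898 for H4 in PTKO cortex at 3 weeks, and 2.35 for H1, 5.22 for H2A and 1.71 for H2B in fl/fl cortex at 3 weeks.

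Depth limits the 60 low genes, whose reads per library are few, and the H3 ratio moved as single libraries were left out. At 6 weeks it was 4.24 without PTKO DMSO replicate 3 and 10.8 without PTKO DMSO replicate 1, and 2.47 without fl/fl AAI replicate 3 and 8.22 without fl/fl AAI replicate 2. At 3 weeks it was 6.45 and 16.5 without the same PTKO DMSO libraries, and 7.14 without fl/fl DMSO replicate 2 and 14.1 without fl/fl AAI replicate 2. These are ratios of group means, not pooled reads. In fl/fl cortex it could not be computed without fl/fl DMSO replicate 1, which held all 3 reads of that group.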
